A study of Homo sapiens with 8 samples.

Results

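TFIID and SAGA are multi-subunit complexes that act at the promoters of genes read by RNA polymerase II, and 32 genes that encode their subunits were followed here through a genome-wide CRISPR knockout screen. The genes were the rows of the guide count table whose gene name is on a list of subunits. All 32 were found among the 18053 gene names of the table. Of these, 12 encode subunits of TFIID only (TBP, TAF1, TAF2, TAF3, TAF4, TAF4B, TAF5, TAF6, TAF7, TAF8, TAF11 and TAF13), 16 encode subunits of SAGA and not of TFIID (TAF5L, TAF6L, SUPT3H, SUPT7L, SUPT20H, TADA1, KAT2A, KAT2B, TADA2B, TADA3, CCDC101, USP22, ATXN7, ATXN7L3, ENY2 and TRRAP), and 4 are shared (TAF9, TAF9B, TAF10 and TAF12). PC9 is an established non-small cell lung cancer line with an activating EGFR mutation. In every group the cells expressed Cas9 and carried TKOv3, a pooled lentiviral library with up to 4 single guide RNAs (guides) for each gene, delivered at low multiplicity so that most cells lost 1 gene. The groups were cells treated for 72 h with 10 µM erlotinib, cells treated for 72 h with 0.1 µM osimertinib, cells kept for 72 h in vehicle (untreated), and cells taken just before drug addition (T0), with 2 libraries each. Erlotinib and osimertinib inhibit the EGFR kinase. The methods state that cells were selected with puromycin before T0, that untreated plates were split 1 day into the 72 h, and that live cells were harvested.

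TFIID carries the TATA-binding protein TBP and a set of TBP-associated factors (TAFs), recognises the core promoter and is the platform on which the other general transcription factors and the polymerase assemble. SAGA is a coactivator whose core resembles a part of TFIID, and it adds an acetyltransferase module that acts on histone H3, a deubiquitinase module that removes ubiquitin from histone H2B, and TRRAP, which is contacted by activators such as MYC. Several TAFs occur in both complexes, and some TFIID subunits have a close relative that serves SAGA instead.

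The table held 126 guides against these genes, of which 121 passed the filter on low counts. The guides left out were 1 each of KAT2B, SUPT3H, TADA2B, TAF4B and USP22, and TAF9 had 2 guides in all. Libraries held between 32096281 and 39200466 reads, and the guides that were kept had between 33 and 1457 reads in a library. Because the reads were copied by PCR without molecular identifiers, this depth speaks of counting error only. A gene's value in a library is the median over its guides of log2 abundance, scaled to guides that target nothing and set against the mean of the T0 libraries. A negative value means that cells with that knockout were rarer, relative to cells with guides that target nothing, than at T0. Values are relative and do not give numbers of cells, which may have grown. The difference of group means is called L2FC and is given ± its standard error from limma, with 2 libraries in each group. A gene was called where the p-value, adjusted over the 17762 genes tested, was under 0.05. The labels speak of a duplicate infection, but neither they nor the methods tie each library to an infection of its own, so the p-values measure the spread between these libraries, part of which may be technical.

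For most TFIID subunits, cells lacking the subunit became rarer within 72 h without drug. The median of the SAGA-only genes lay close to that of all genes. Relative to T0, 25 of the 32 genes were lower in untreated cells and 0 were higher. Among all genes tested, 45.8% were lower and 0.045% higher in this comparison, and the median of all genes lay 0.15 below the guides that target nothing. By class, 11 of 12 TFIID-only genes, 3 of 4 shared genes and 11 of 16 SAGA-only genes were lower. The median L2FC was -0.57 for TFIID-only genes, -0.59 for shared genes and -0.20 for SAGA-only genes. Measured from the median of all genes, these medians were -0.41, -0.43 and -0.04. No member was higher at an unadjusted p under 0.05, and edgeR on the summed counts of each gene also called 0 higher.

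The zero point decides how many of these calls stand. With libraries scaled over all guides by TMM, where the median of all genes lay at 0.01 and 9.94% of all genes were lower, 13 members were lower, which were 8 TFIID-only, 3 shared and 2 SAGA-only genes. The 12 that were no longer called were TAF1, TAF4, TAF11, CCDC101, SUPT3H, TAF6L, TADA1, TADA2B, TADA3, ATXN7L3, KAT2B and ENY2.

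**Figure D1:**
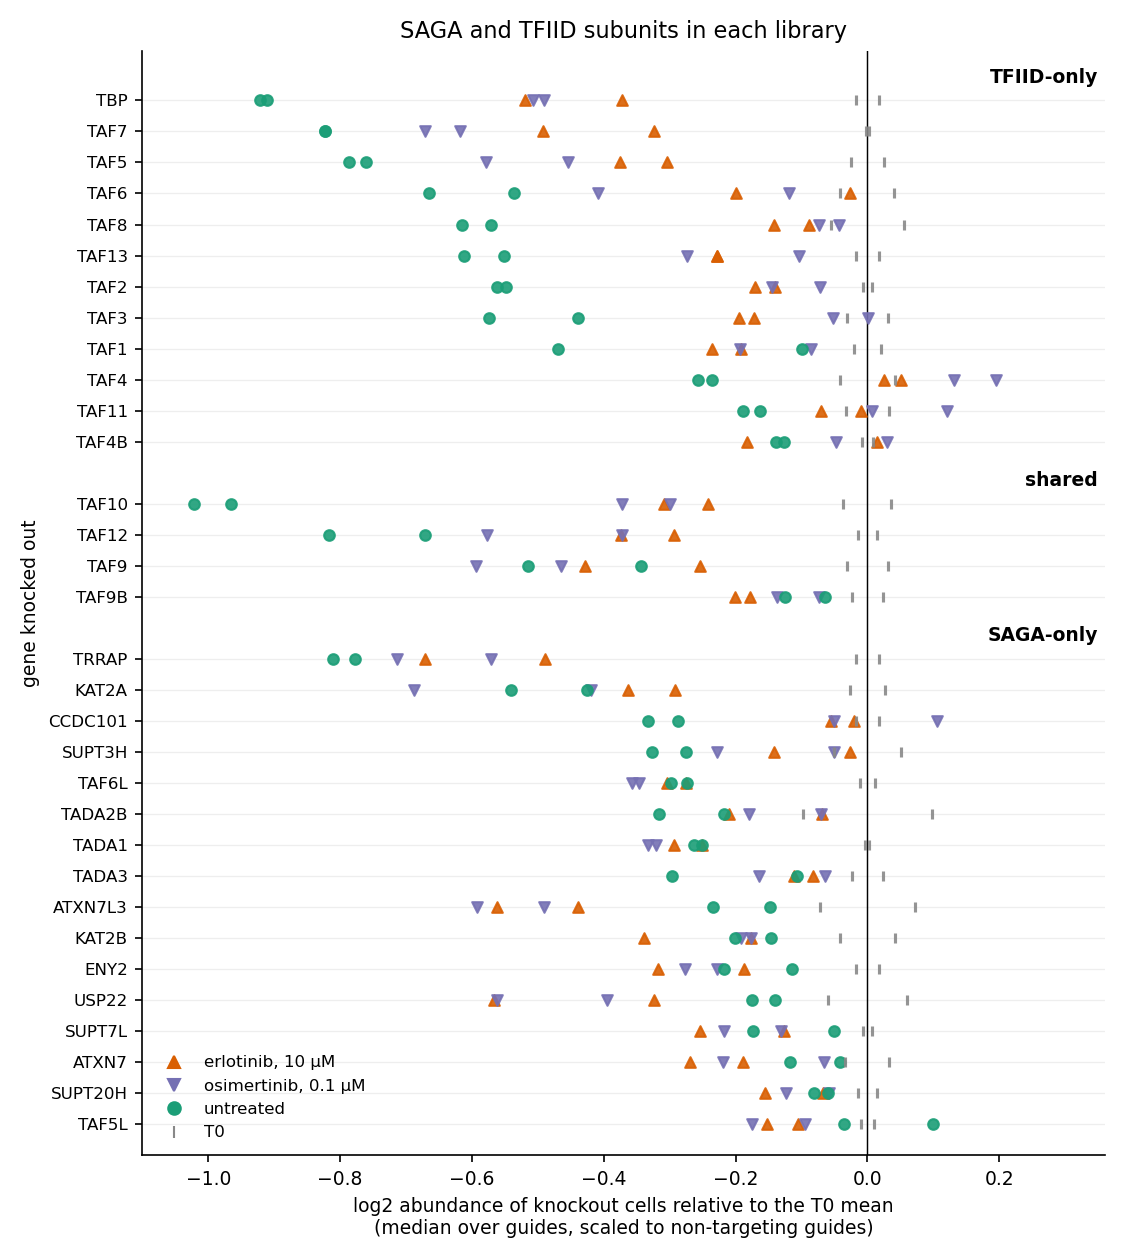
Each marker is the value of a gene in 1 library, as log2 abundance relative to the T0 mean (x axis), for the 32 genes (y axis) sorted within their class by the untreated mean. The untreated libraries (circles) lie far to the left for most TFIID-only genes and for TAF10, TAF12 and TRRAP, and the drug libraries (triangles) of TBP, TAF10, TAF12 and TRRAP lie between them and T0.

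Under both drugs most TFIID subunits were depleted less than without drug, and few SAGA-only genes differed from untreated cells. Against untreated cells, 9 of 12 TFIID-only genes were higher under erlotinib and 8 of 12 under osimertinib, where 4.51% and 5.03% of all genes were higher. Among the shared genes, TAF10 and TAF12 were higher under each drug. Of the 16 SAGA-only genes, 2 were higher under erlotinib (CCDC101 and SUPT3H) and 1 under osimertinib (CCDC101). The same 2 SAGA-only genes, ATXN7L3 and USP22, were lower under each drug, where 3.4% of all genes were lower under erlotinib and 7% under osimertinib. The median L2FC of the TFIID-only genes was 0.38 under erlotinib and 0.37 under osimertinib, that of the shared genes 0.25 and 0.13, and that of the SAGA-only genes -0.03 and -0.06, beside 0.00 and -0.01 for all genes. No TFIID-only gene was lower under either drug, also at an unadjusted p under 0.05 or by edgeR on summed counts. These comparisons share the untreated libraries with each other and with the comparison to T0, so a chance error in those libraries enters all of them.

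**Figure D2:**
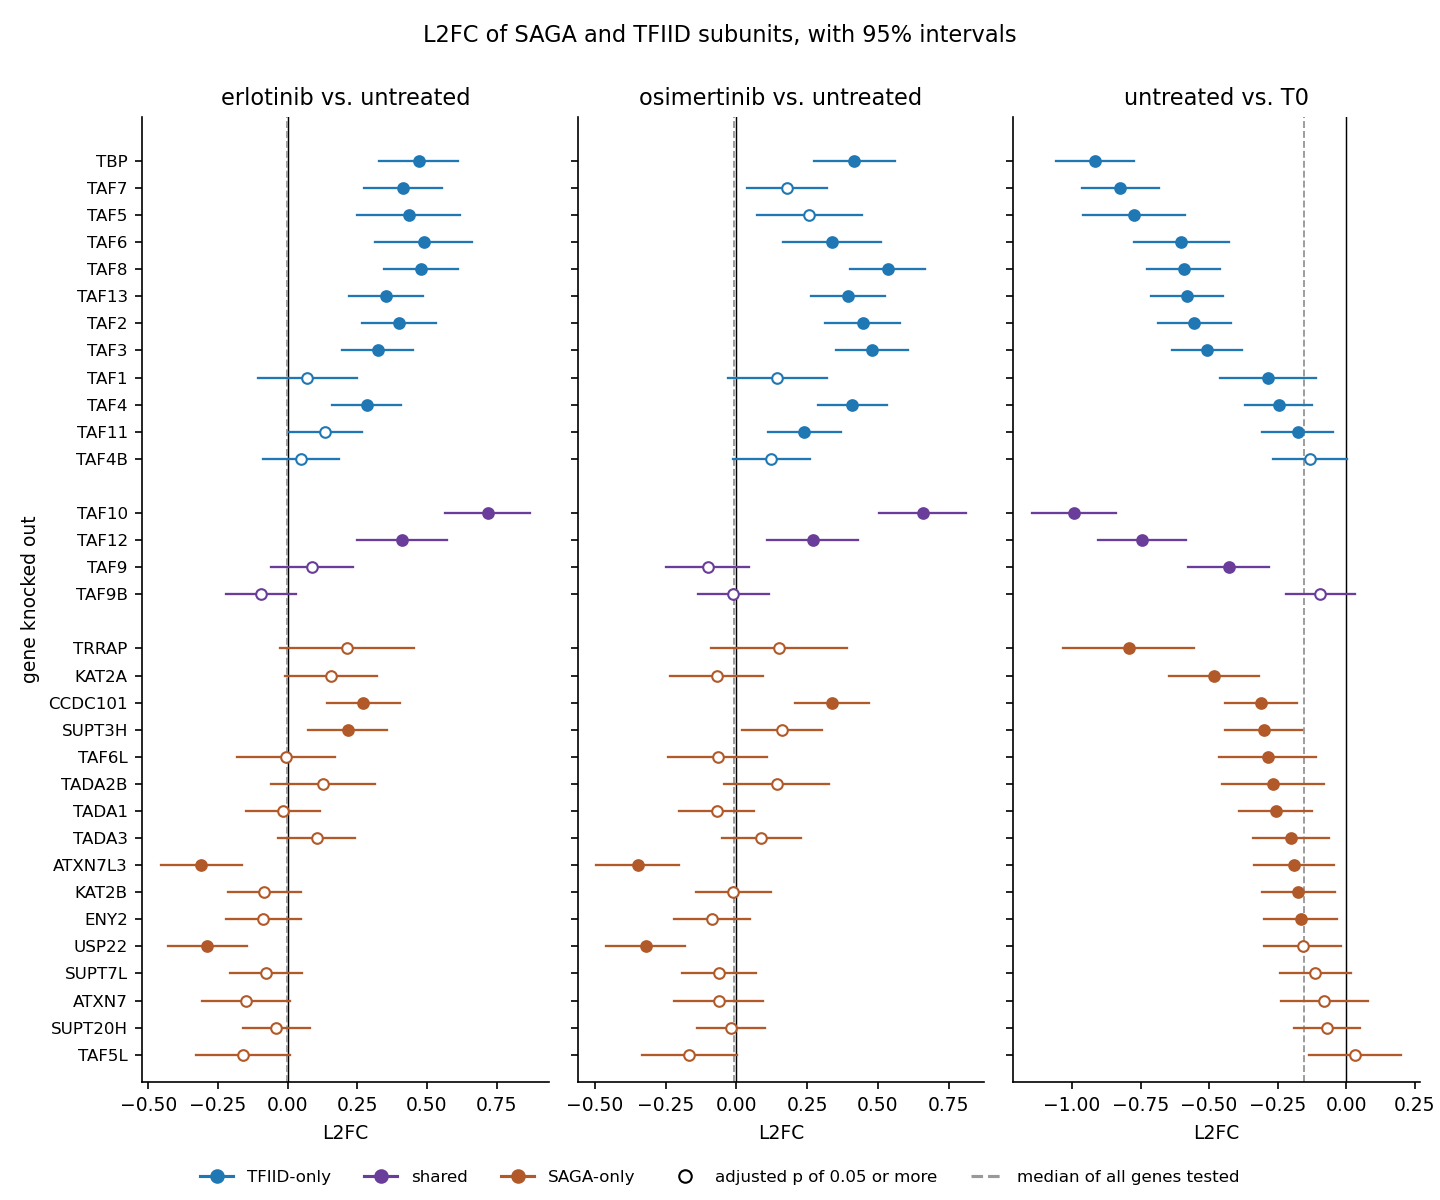
L2FC (x axes) of the 32 genes (y axis) under erlotinib and osimertinib against untreated cells and in untreated cells against T0, with 95% intervals from limma. Filled points have an adjusted p under 0.05, and the dashed line is the median of all genes tested. TFIID-only genes lie to the right in both drug panels, with 9 and 8 of 12 called.

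TBP, which binds the TATA box and also serves the initiation factors of RNA polymerases I and III, was among the most depleted members. Its values were -0.52 and -0.37 under erlotinib, -0.51 and -0.49 under osimertinib, -0.91 and -0.92 in untreated cells and -0.02 and 0.02 at T0. The drug libraries lay between the untreated and the T0 libraries and overlapped with neither. The L2FC was -0.92 ± 0.07 in untreated cells against T0 (adjusted p = 1.88e-13), 0.47 ± 0.07 under erlotinib against untreated cells (adjusted p = 9.37e-06) and 0.42 ± 0.07 under osimertinib (adjusted p = 5.94e-05). Its guides differed in how far they fell. The guide with the largest change had 245 and 241 reads under erlotinib, 217 and 290 under osimertinib, 127 and 154 in untreated cells and 429 and 394 at T0, while another guide had 577 and 670 reads in untreated cells against 659 and 671 at T0. Over the 4 guides, the L2FC in untreated cells ranged between -1.65 and -0.19.

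TAF5 and TAF6 belong, with TAF4, TAF9 and TAF12, to the core that is built in both lobes of TFIID. TAF5 had values of -0.30 and -0.37 under erlotinib, -0.45 and -0.58 under osimertinib, -0.79 and -0.76 in untreated cells and 0.02 and -0.02 at T0. The untreated libraries were the lowest, with no overlap with either drug. Its L2FC was -0.77 ± 0.09 in untreated cells against T0 and 0.43 ± 0.09 under erlotinib against untreated cells (adjusted p = 0.00132), and under osimertinib it was 0.26 ± 0.09 and missed the threshold (adjusted p = 0.0591). TAF6 stood at -0.03 and -0.20 under erlotinib, -0.41 and -0.12 under osimertinib, -0.54 and -0.67 in untreated cells and -0.04 and 0.04 at T0, where 1 osimertinib library lay nearer to the untreated ones than the other. The L2FC of TAF6 was -0.60 ± 0.09 in untreated cells, 0.49 ± 0.09 under erlotinib and 0.34 ± 0.09 under osimertinib, and the osimertinib call was lost without osimertinib replicate 2 (0.17, adjusted p = 0.242), without untreated replicate 2 (0.26, adjusted p = 0.124) and relative to the median of the 20 genes nearest on the chromosome (0.25, adjusted p = 0.096). For TAF4, the values were 0.03 and 0.05 under erlotinib, 0.20 and 0.13 under osimertinib, -0.24 and -0.26 in untreated cells and -0.04 and 0.04 at T0. The osimertinib libraries lay above all others. TAF4 was lower in untreated cells than at T0 by little more than all genes were (-0.25 ± 0.06, or -0.09 from the median of all genes), and higher than untreated under erlotinib (0.28 ± 0.06, adjusted p = 0.00162) and osimertinib (0.41 ± 0.06, adjusted p = 6.49e-06).

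TAF8 escorts TAF10 into the complex, and TAF2 joins through TAF8. TAF8 had values of -0.09 and -0.14 under erlotinib, -0.04 and -0.07 under osimertinib, -0.62 and -0.57 in untreated cells and -0.05 and 0.05 at T0. Its drug libraries lay within or near the range of T0 and well above the untreated ones. The L2FC was -0.59 ± 0.07 in untreated cells against T0, 0.48 ± 0.07 under erlotinib (adjusted p = 1.82e-06) and 0.53 ± 0.07 under osimertinib (adjusted p = 1.9e-07), the largest of the TFIID-only genes under osimertinib. Of its 4 guides, 3 were called lower in untreated cells, 2 higher under erlotinib and 3 higher under osimertinib by edgeR. TAF2, which contacts the promoter downstream of the TATA box, stood at -0.14 and -0.17 under erlotinib, -0.14 and -0.07 under osimertinib, -0.55 and -0.56 in untreated cells and 0.01 and -0.01 at T0. The libraries of each drug lay above the untreated ones without overlap. Its L2FC was -0.55 ± 0.07 in untreated cells, 0.40 ± 0.07 under erlotinib and 0.45 ± 0.07 under osimertinib, and its 4 guides moved alike in untreated cells, between -0.70 and -0.41.

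TAF3 binds the trimethylated lysine of histone H3 that marks active promoters. It stood at -0.17 and -0.19 under erlotinib, -0.05 and 0.00 under osimertinib, -0.44 and -0.57 in untreated cells and 0.03 and -0.03 at T0, so that the osimertinib libraries lay next to those of T0. The L2FC of TAF3 was -0.51 ± 0.06 in untreated cells, 0.32 ± 0.06 under erlotinib (adjusted p = 0.000494) and 0.48 ± 0.06 under osimertinib (adjusted p = 5.99e-07). TAF7 is a partner of TAF1, the largest subunit. Its values were -0.49 and -0.32 under erlotinib, -0.67 and -0.62 under osimertinib, -0.82 and -0.82 in untreated cells and 0.00 and 0.00 at T0, with the osimertinib libraries nearer to the untreated ones than the erlotinib libraries were. The L2FC was -0.82 ± 0.07 in untreated cells, where all 4 guides were called lower, and 0.42 ± 0.07 under erlotinib (adjusted p = 5.27e-05). Under osimertinib it was 0.18 ± 0.07 and was not called (adjusted p = 0.0877).

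TAF1 itself showed libraries that disagreed. It stood at -0.19 and -0.24 under erlotinib, -0.09 and -0.19 under osimertinib, -0.47 and -0.10 in untreated cells and -0.02 and 0.02 at T0. The untreated libraries were the farthest apart of any member and enclosed every drug library but 1. The call in untreated cells (-0.28 ± 0.09, adjusted p = 0.0085) was lost without untreated replicate 1 (-0.07, adjusted p = 0.552). Of its 4 guides, 1 was called lower in untreated cells and higher under both drugs. TAF13 and TAF11 form a histone-fold pair that touches TBP. TAF13 had an L2FC of -0.58 ± 0.07 in untreated cells, 0.35 ± 0.07 under erlotinib and 0.39 ± 0.07 under osimertinib, all called, whereas TAF11 had -0.18 ± 0.06, close to the median of all genes, then 0.14 ± 0.06 under erlotinib (adjusted p = 0.213) and 0.24 ± 0.06 under osimertinib (adjusted p = 0.0102). The osimertinib call of TAF11 was lost without either untreated library (adjusted p = 0.0646 and 0.109) or without osimertinib replicate 1 (0.18, adjusted p = 0.118).

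The shared subunits split into TAF10 and TAF12, which were higher under both drugs than without, and TAF9 and TAF9B, which were called under neither. TAF10 is a histone-fold protein of TFIID and SAGA, and it was the most depleted of the 32 genes. Its values were -0.24 and -0.31 under erlotinib, -0.37 and -0.30 under osimertinib, -0.96 and -1.02 in untreated cells and 0.04 and -0.04 at T0. The untreated libraries lay far below the drug libraries, which in turn lay below T0. The L2FC was -0.99 ± 0.08 in untreated cells against T0 (adjusted p = 1.24e-13), 0.72 ± 0.08 under erlotinib (adjusted p = 5.4e-09) and 0.66 ± 0.08 under osimertinib (adjusted p = 4.4e-08), the largest of all members in each comparison. Its strongest guide had 629 and 666 reads under erlotinib, 612 and 710 under osimertinib, 296 and 294 in untreated cells and 926 and 898 at T0. Its weakest guide had 321 and 372 reads under erlotinib, 435 and 476 under osimertinib, 363 and 355 in untreated cells and 356 and 354 at T0.

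TAF12, the partner of TAF4 in TFIID and of TADA1 in SAGA, stood at -0.29 and -0.37 under erlotinib, -0.58 and -0.37 under osimertinib, -0.82 and -0.67 in untreated cells and -0.01 and 0.01 at T0. The untreated libraries lay lowest, and an osimertinib library came near them. The L2FC of TAF12 was -0.74 ± 0.08 in untreated cells, 0.41 ± 0.08 under erlotinib (adjusted p = 0.000486) and 0.27 ± 0.08 under osimertinib (adjusted p = 0.0208). The osimertinib call was lost without osimertinib replicate 2 (0.14, adjusted p = 0.325), without untreated replicate 1 (0.21, adjusted p = 0.21) and relative to its 20 nearest genes (0.22, adjusted p = 0.134). TAF9, a partner of TAF6 and TAF6L measured with 2 guides, stood at -0.43 and -0.25 under erlotinib, -0.46 and -0.59 under osimertinib, -0.34 and -0.51 in untreated cells and 0.03 and -0.03 at T0. Its libraries overlapped between untreated cells and both drugs. TAF9 was lower in untreated cells than at T0 (-0.43 ± 0.07, adjusted p = 9.93e-06), with 0.09 ± 0.07 under erlotinib and -0.10 ± 0.07 under osimertinib against untreated cells, neither called.

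Among SAGA-only genes, TRRAP and the acetyltransferase KAT2A had the lowest values without drug. TRRAP, which SAGA shares with the NuA4 acetyltransferase complex, stood at -0.67 and -0.49 under erlotinib, -0.57 and -0.71 under osimertinib, -0.81 and -0.78 in untreated cells and 0.02 and -0.02 at T0. All 6 libraries taken at 72 h lay well below T0, and the untreated ones were the lowest. The L2FC was -0.79 ± 0.12 in untreated cells (adjusted p = 1.02e-06), with 3 of 4 guides called lower. Against untreated cells it was 0.21 ± 0.12 under erlotinib (adjusted p = 0.308) and 0.15 ± 0.12 under osimertinib (adjusted p = 0.455), intervals that reach from -0.03 to 0.45 and from -0.09 to 0.39.

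KAT2A (GCN5) is the catalytic subunit of the acetyltransferase module and is also found in the ATAC complex. It stood at -0.36 and -0.29 under erlotinib, -0.69 and -0.42 under osimertinib, -0.42 and -0.54 in untreated cells and 0.03 and -0.03 at T0. The erlotinib libraries lay above the untreated ones, and the osimertinib libraries overlapped with them. The L2FC was -0.48 ± 0.08 in untreated cells (adjusted p = 9.83e-06), 0.16 ± 0.08 under erlotinib (adjusted p = 0.275) and -0.07 ± 0.08 under osimertinib (adjusted p = 0.645). Relative to its 20 nearest genes the erlotinib value was 0.29 and was called (adjusted p = 0.0296). All 5 genes of the module were called lower in untreated cells, with a median of -0.27, where 45.8% of all genes were lower. With TMM scaling over all guides, CCDC101, KAT2B, TADA2B and TADA3 lost these calls. Relative to the 20 nearest genes KAT2B, TADA2B and TADA3 lost them. TADA3 (-0.20 ± 0.07) and TADA2B (-0.27 ± 0.09), adaptors that hold the enzyme, lay near the median of all genes (-0.05 and -0.11 from it), as did KAT2B (-0.17 ± 0.07, or -0.02).

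CCDC101 (SGF29), which reads methylated histone H3 for the same module, was the only SAGA-only gene called higher under both drugs. Its values were -0.06 and -0.02 under erlotinib, -0.05 and 0.11 under osimertinib, -0.33 and -0.29 in untreated cells and 0.02 and -0.02 at T0. Every drug library lay above both untreated libraries. The L2FC was -0.31 ± 0.07 in untreated cells, 0.27 ± 0.07 under erlotinib (adjusted p = 0.00503) and 0.34 ± 0.07 under osimertinib (adjusted p = 0.000378), and under each drug 4 of 4 guides had a positive L2FC. Relative to the 20 nearest genes these drug values were 0.20 (adjusted p = 0.0943) and 0.17 (adjusted p = 0.167), and the erlotinib call was also lost without untreated replicate 1 (adjusted p = 0.0727) or erlotinib replicate 2 (adjusted p = 0.0695). TADA3 (0.11 ± 0.07 under erlotinib and 0.09 ± 0.07 under osimertinib), TADA2B (0.13 ± 0.09 and 0.14 ± 0.09) and KAT2B (-0.08 ± 0.07 and -0.01 ± 0.07) were not called.

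The SAGA core holds the structural subunits. SUPT3H, which contacts TBP, stood at -0.14 and -0.03 under erlotinib, -0.23 and -0.05 under osimertinib, -0.33 and -0.28 in untreated cells and 0.05 and -0.05 at T0. The drug libraries lay above the untreated ones. Its L2FC was -0.30 ± 0.07 in untreated cells (adjusted p = 0.00077), 0.22 ± 0.07 under erlotinib (adjusted p = 0.0467) and 0.16 ± 0.07 under osimertinib (adjusted p = 0.131), and the erlotinib call was lost when any erlotinib or untreated library was left out (adjusted p of 0.0628 to 0.421) with the mean over guides (adjusted p = 0.0591), without the count filter (0.0997), without an abundance trend in limma (0.0924) and relative to the 20 nearest genes (0.0799). TADA1 was lower in untreated cells (-0.26 ± 0.07), and under the drugs it had -0.02 ± 0.07 and -0.07 ± 0.07. Relative to the 20 nearest genes, the untreated calls of SUPT3H (-0.17, adjusted p = 0.175) and TADA1 (-0.12, adjusted p = 0.363) were lost. SUPT7L (-0.11 ± 0.06) and SUPT20H (-0.07 ± 0.06), a pair of scaffold proteins, were not called in untreated cells or under either drug against untreated cells.

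Among the 32 genes, only the deubiquitinase module had members called lower under drug than in untreated cells. USP22 is its catalytic subunit, ATXN7L3 and ENY2 are needed for its activity, and ATXN7 anchors it to SAGA. ATXN7L3 stood at -0.44 and -0.56 under erlotinib, -0.59 and -0.49 under osimertinib, -0.15 and -0.23 in untreated cells and -0.07 and 0.07 at T0. Every drug library lay below both untreated libraries. Its L2FC was -0.31 ± 0.07 under erlotinib against untreated cells (adjusted p = 0.00395), -0.35 ± 0.07 under osimertinib (adjusted p = 0.000881) and -0.19 ± 0.07 in untreated cells against T0, which is -0.04 from the median of all genes. USP22 stood at -0.32 and -0.57 under erlotinib, -0.56 and -0.39 under osimertinib, -0.14 and -0.18 in untreated cells and -0.06 and 0.06 at T0, again with all drug libraries below the untreated ones. The L2FC of USP22 was -0.29 ± 0.07 under erlotinib (adjusted p = 0.00547), -0.32 ± 0.07 under osimertinib (adjusted p = 0.00146) and -0.16 ± 0.07 in untreated cells, which missed the threshold (adjusted p = 0.0583).

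By single guides, 2 of 4 for ATXN7L3 were called lower under each drug, while the guide with the smallest change was not called (0.00 under erlotinib and -0.04 under osimertinib). The strongest ATXN7L3 guide had 306 and 237 reads under erlotinib, 232 and 293 under osimertinib, 404 and 536 in untreated cells and 488 and 489 at T0. For USP22, 1 of 3 guides was called lower under erlotinib and 2 of 3 under osimertinib, where the guides ranged between -0.41 and -0.31. ATXN7 (-0.15 ± 0.08 under erlotinib and -0.06 ± 0.08 under osimertinib) and ENY2 (-0.09 ± 0.07 and -0.09 ± 0.07), which also belongs to the TREX-2 mRNA export complex, were not called.

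The calls for ATXN7L3 and USP22 did not hold against the genes around them. The 20 genes nearest to ATXN7L3 had a median L2FC of -0.16 under erlotinib and -0.23 under osimertinib, and those nearest to USP22 had -0.13 and -0.17. Relative to those neighbours the values were -0.15 (adjusted p = 0.358) and -0.12 (adjusted p = 0.429) for ATXN7L3, and -0.16 (adjusted p = 0.281) and -0.15 (adjusted p = 0.27) for USP22, so that neither was called under either drug. By this measure 9 of 12 TFIID-only genes were higher under erlotinib and 7 of 12 under osimertinib, beside 3.01% and 2.54% of all genes. Under erlotinib both calls were also lost without erlotinib replicate 2 (adjusted p = 0.11 for ATXN7L3 and 0.191 for USP22) or untreated replicate 1 (0.0943 and 0.0755), and that of USP22 was lost without the filter on low counts (-0.23, adjusted p = 0.0901). The osimertinib calls of both genes held when any 1 library was left out.

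**Figure D3:**
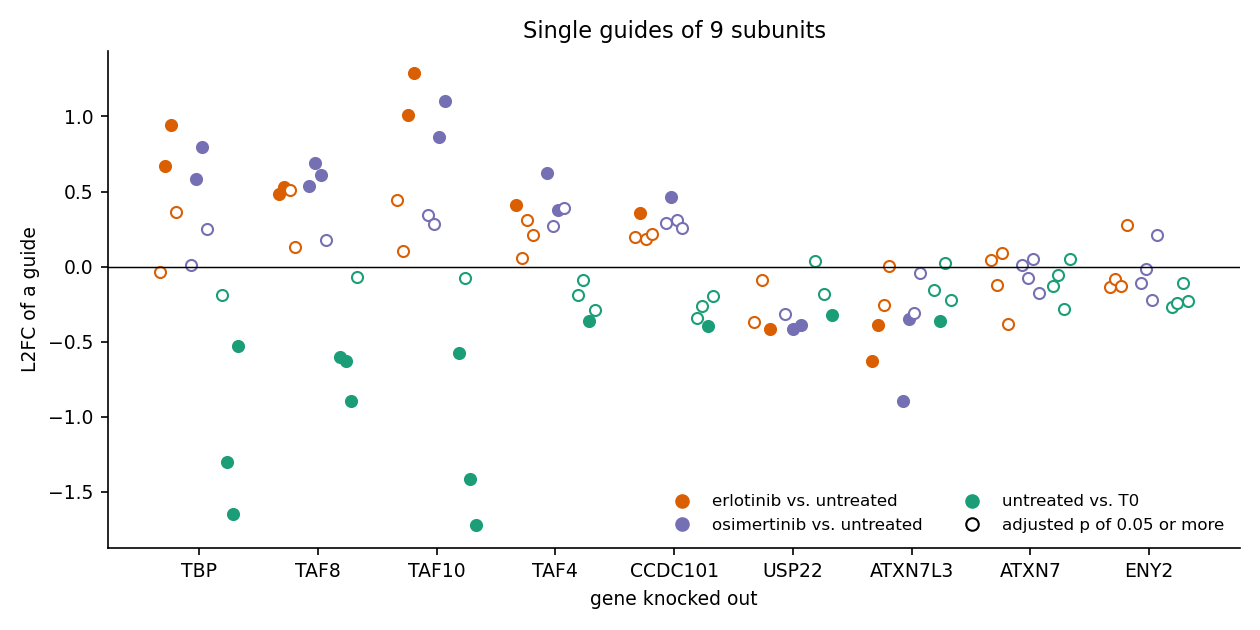
Each point is the L2FC of 1 guide (y axis) for 9 genes (x axis), under erlotinib and osimertinib against untreated cells and in untreated cells against T0, from left to right within a gene. Filled points have an adjusted p under 0.05 by edgeR over all guides, and open points do not. The 4 guides of TAF10 spread between -1.72 and -0.08 in untreated cells, and those of CCDC101 are all above 0 under both drugs.

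Counted over guides, 29 of 47 TFIID-only guides, 8 of 14 shared guides and 15 of 60 SAGA-only guides were lower in untreated cells than at T0 by edgeR, where 19% of all targeting guides were lower. Under erlotinib, 17 of 47 TFIID-only guides, 3 of 14 shared guides and 1 of 60 SAGA-only guides were higher than in untreated cells, beside 1.73% of all guides. Under osimertinib these were 19 of 47, 2 of 14 and 2 of 60, beside 2.13% of all guides. Member guides called lower under drug all belonged to SAGA-only genes. They were 3 of 60 under erlotinib (ATXN7L3 and USP22) and 5 of 60 under osimertinib (ATXN7L3, USP22 and KAT2A), beside 1.07% and 2.62% of all guides. Guides to 1 gene share their target and are not replicates.

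The share of members lower than at T0 lay closer to that of all genes under the drugs than in untreated cells. Under erlotinib, 21 of 32 genes were lower than at T0 and 0 were higher, also at an unadjusted p under 0.05 or by edgeR on summed counts, beside 48.6% and 0.372% of all genes. Under osimertinib, 17 were lower and 1 higher, beside 50.9% and 1.09%, so the share that was lower is close to that of all genes. The gene that was higher was TAF4 (0.16 ± 0.06, adjusted p = 0.0237), a call that was lost without T0 replicate 1 (0.14, adjusted p = 0.145) or osimertinib replicate 1 (0.12, adjusted p = 0.16). For TFIID-only genes the median was -0.17 under erlotinib and -0.12 under osimertinib, which is -0.01 and 0.04 from the median of all genes. The 4 genes of the deubiquitinase module, by contrast, had a median of -0.35 and -0.37, which is -0.19 and -0.20 from all genes. Relative to their nearest genes on the chromosome, none of these 4 genes was called against T0 under either drug. These relative values under erlotinib and osimertinib were -0.18 and -0.17 for USP22 and -0.12 and -0.10 for ATXN7L3. For ATXN7 they were -0.06 and 0.03, and for ENY2 -0.04 and 0.02. The counts against T0 depend on the zero point. With TMM scaling over all guides, 5 members were lower and 1 higher under erlotinib, beside 10.9% and 5.15% of all genes. Under osimertinib 9 were lower and 3 higher, beside 15.4% and 11%.

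**Figure D4:**
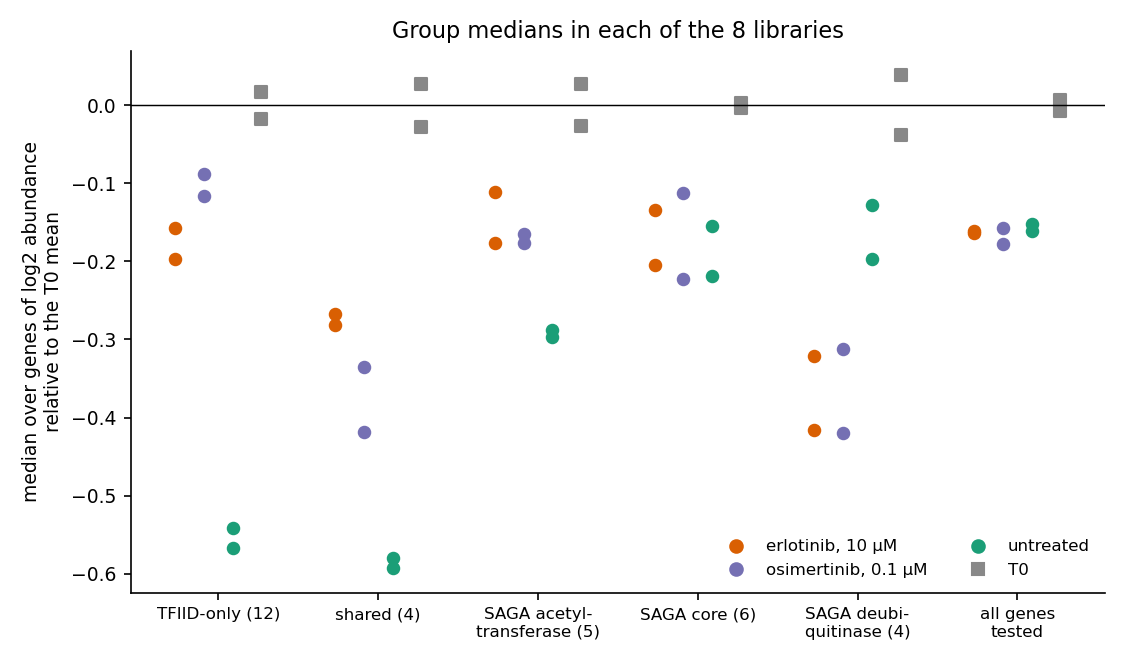
Points are the median over the genes of a group (x axis, number of genes in brackets) of log2 abundance (y axis, relative to the mean of T0) in each library. In untreated cells the TFIID-only medians were -0.54 and -0.57 and the shared medians -0.58 and -0.59, below the drug libraries, whereas the deubiquitinase medians were -0.13 and -0.20, above the drug libraries. TRRAP is not part of these groups.

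The TFIID-only genes that remained lowest relative to T0 were TBP (-0.45 ± 0.07 under erlotinib and -0.50 ± 0.07 under osimertinib), TAF7 (-0.41 ± 0.07 and -0.64 ± 0.07) and TAF5 (-0.34 ± 0.09 and -0.52 ± 0.09). TAF8 (-0.12 ± 0.07 and -0.06 ± 0.07) and TAF11 (-0.04 ± 0.06 and 0.06 ± 0.06) were not called against T0 under either drug. Among SAGA-only genes, the lowest were TRRAP (-0.58 ± 0.12 and -0.64 ± 0.12), ATXN7L3 (-0.50 ± 0.07 and -0.54 ± 0.07), USP22 (-0.45 ± 0.07 and -0.48 ± 0.07) and KAT2A (-0.33 ± 0.08 and -0.55 ± 0.08), all called under both drugs. TAF10, the lowest gene without drug, had -0.28 ± 0.08 and -0.34 ± 0.08. Relative to the 20 nearest genes the calls of 3 of these SAGA genes were lost, with ATXN7L3 at -0.12 and -0.10 (adjusted p = 0.401 and 0.46), USP22 at -0.18 and -0.17 (adjusted p = 0.121 and 0.106) and KAT2A at 0.0069 and -0.19 (adjusted p = 0.982 and 0.143). The call of TRRAP held by this measure under both drugs (-0.46 and -0.52). With TMM scaling KAT2A (-0.16, adjusted p = 0.183) and TAF5 (-0.17, adjusted p = 0.213) lost their calls under erlotinib, and TAF10 lost its calls under both drugs (-0.11 and -0.16, adjusted p = 0.358 and 0.114). TAF5 and TAF10 under erlotinib also lost their calls relative to neighbours (adjusted p = 0.241 and 0.163) and without T0 replicate 1 (adjusted p = 0.0547 and 0.104), and TAF10 without erlotinib replicate 2 (adjusted p = 0.0555). TAF10 under osimertinib was not called relative to neighbours either (-0.20, adjusted p = 0.0803).

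The drugs, given at different doses, were also set against each other. None of the 32 genes was called, where 1.16% of all genes were higher and 0.524% lower under erlotinib than under osimertinib. At an unadjusted p under 0.05, 3 members were higher (TAF7, KAT2A and TAF9) and 2 lower (TAF3 and TAF4) under erlotinib. TAF7 came nearest to the threshold, with an L2FC of 0.24 ± 0.07 (adjusted p = 0.0698, interval 0.10 to 0.38). By the mean over guides and by edgeR on summed counts, TAF7 was called higher (0.28 and 0.27) and TAF3 lower (-0.21 and -0.26) under erlotinib, and without osimertinib replicate 2 KAT2A was called higher (0.34, adjusted p = 0.0287). For USP22 and ATXN7L3 the drugs differed by 0.03 (interval -0.11 to 0.17) and 0.04 (interval -0.11 to 0.19).

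Some subunits have a paralogue, and the partners were set side by side without a test of their difference, since each gene has its own guides. TAF4B, the relative of TAF4, stood at 0.01 and -0.18 under erlotinib, -0.05 and 0.03 under osimertinib, -0.14 and -0.13 in untreated cells and -0.01 and 0.01 at T0, and it was called in no comparison. TAF4 was called in untreated cells and under both drugs. TAF5L replaces TAF5 in SAGA. Its values were -0.10 and -0.15 under erlotinib, -0.17 and -0.09 under osimertinib, 0.10 and -0.04 in untreated cells and 0.01 and -0.01 at T0. TAF5L was the only member with a positive L2FC in untreated cells (0.03 ± 0.08, interval -0.14 to 0.20), whereas that of TAF5 had an interval of -0.96 to -0.59.

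TAF6L, which takes the place of TAF6 in SAGA, stood at -0.28 and -0.30 under erlotinib, -0.36 and -0.35 under osimertinib, -0.27 and -0.30 in untreated cells and 0.01 and -0.01 at T0. Its 6 libraries at 72 h lay close together, and the L2FC was -0.29 ± 0.09 in untreated cells, 0.00 ± 0.09 under erlotinib and -0.07 ± 0.09 under osimertinib. In untreated cells the 20 genes nearest to TAF6L had a median of -0.23, and relative to them its value was -0.05 (adjusted p = 0.825). TAF9B had -0.18 and -0.20 under erlotinib, -0.14 and -0.07 under osimertinib, -0.06 and -0.12 in untreated cells and 0.02 and -0.02 at T0, which kept it near the median of all genes, and its L2FC of -0.09 ± 0.06 in untreated cells compares with -0.43 ± 0.07 for TAF9. KAT2B, the alternative to KAT2A, had -0.18 and -0.34 under erlotinib, -0.19 and -0.18 under osimertinib, -0.15 and -0.20 in untreated cells and 0.04 and -0.04 at T0. Its interval in untreated cells was -0.31 to -0.04, and that of KAT2A was -0.65 to -0.32.

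Factors that work beside these complexes were counted for comparison. Among all genes, 45.8% were lower in untreated cells than at T0, and against untreated cells 4.51% were higher and 3.4% lower under erlotinib and 5.03% higher and 7% lower under osimertinib. Of 16 other general transcription factor genes tested, 14 were lower in untreated cells than at T0 (median -0.75), 9 were higher under erlotinib (median 0.27) and 4 under osimertinib (median 0.14), with the TFIIH kinase CDK7 at 0.86 ± 0.09 under erlotinib and the TFIIA subunit GTF2A2 at 0.52 ± 0.10 under osimertinib. NuA4, the other complex of TRRAP, had 13 of 15 genes lower in untreated cells (median -0.45) and, under osimertinib, 1 higher (MRGBP, 0.26 ± 0.07) and 2 lower (lowest BRD8, -0.39 ± 0.08). Under erlotinib 0 NuA4 genes were called by limma, with 4 higher and 2 lower at an unadjusted p under 0.05, and edgeR on summed counts called 2 higher and 1 lower. Of the 8 ATAC genes tested, 5 were lower in untreated cells, 2 higher under erlotinib (highest WDR5, 0.50 ± 0.08) and 3 higher under osimertinib (highest CSRP2BP, 0.30 ± 0.07). Among 14 paralogues and partners of TBP, 12 were lower in untreated cells, with 4 higher and 1 lower (DRAP1, -0.36 ± 0.08) under erlotinib and 3 higher and 4 lower under osimertinib. Of 6 other genes linked to SAGA, 3 were lower in untreated cells, near the share of all genes, and 1 under osimertinib (SF3B5, -0.39 ± 0.12). Under erlotinib 0 of them were called by limma or by edgeR on summed counts, with 0 higher and 1 lower at an unadjusted p under 0.05. With single libraries left out, the osimertinib counts ranged from 2 to 5 higher for general transcription factors and 0 to 3 higher for ATAC. They ranged from 1 to 3 higher and 1 to 4 lower for TBP partners, and 0 to 1 higher and 1 to 3 lower for NuA4. For the 6 other genes linked to SAGA the range was 0 to 1 lower.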

How the data were processed

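The table of guide counts that the authors deposited holds whole-number reads per guide and library, not normalized, for 71090 guides and 8 libraries (2 per group). Reads were aligned to the guide sequences with Bowtie (Bowtie2 in the study's methods, Bowtie 1.3.1 in the submitters' processing notes). The authors' own comparisons were not used. The 5% of guides with the lowest normalized counts on average (under 45.8) were removed, which left 67535 guides. Libraries were scaled with TMM factors computed on 138 non-targeting guides. For a gene with 2 or more guides kept, the median over guides of guide-centred log2 abundance (prior count 1) was taken in each library, and 17762 genes were compared with limma 3.58.1 (lmFit, eBayes with an abundance trend, all 8 libraries, two-sided, Benjamini-Hochberg, threshold 0.05). Single guides were tested with edgeR 4.0.16 (quasi-likelihood). The study's own gene test, which draws random sets of non-targeting guides, was not run. The scripts were tested on simulated data.

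The members and the lists of related genes were chosen with earlier results of these data known. All TFIID-only, shared and SAGA-only genes enter every count. Values in each library were given for a fixed set of subunits (the catalytic and defining ones and the paralogue pairs) and TAF1, and L2FC and calls for the others, and in each related list only the lowest or highest gene called was named. Members named in the comparison of the drugs were chosen after their values were seen. Alternatives covered library scaling, the filter, the prior count, the collapse of guides, the test (DESeq2 1.42.0 per guide), neighbouring genes, each library left out and the replicate number as a block. The main fit had no block for replicate number, and guide deviations of same-numbered libraries correlated by -0.003 to 0.010. These correlations cannot tell whether same-numbered libraries shared an infection. A higher-dose osimertinib arm was not analysed here. No guide sequence was printed.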

Additional observations from a re-analysis of the deposited data

How the results depend on the processing

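The drug comparisons against untreated cells were little affected by scaling, whereas every comparison with T0 depended on the zero point. Counts of members and class medians follow for those that moved, with the reported value in brackets. With TMM over all guides, members lower were 5 under erlotinib [21] and 9 under osimertinib [17] against T0 and 13 in untreated cells [25], and members higher were 1 [0] and 3 [1] under the drugs. Of all genes, 10.9%, 15.4% and 9.94% were lower by this scaling, and 5.15% and 11% higher under the drugs. The medians of TFIID-only, SAGA-only and shared genes were -0.0025, -0.074 and -0.14 under erlotinib, 0.053, -0.0025 and -0.23 under osimertinib, and -0.40, -0.031 and -0.42 in untreated cells, and 32 guides were lower in untreated cells [52]. DESeq2 size factors gave 5, 9 and 13 members lower, 1 and 3 higher, medians of -0.0053, -0.076 and -0.14, then 0.049, -0.0056 and -0.23, then -0.41, -0.035 and -0.42, and 33 guides. The shares of all genes were 11.1%, 15.7% and 10.2% lower and 4.94% and 10.5% higher. Scaling to guides against olfactory receptor genes gave 5, 11 and 14 lower, 1 and 2 higher, medians of -0.030, -0.10 and -0.17, then 0.012, -0.043 and -0.27, then -0.46, -0.084 and -0.47, a TFIID-only median of 0.40 under erlotinib against untreated cells [0.38], and 3 guides lower under osimertinib against untreated cells [5]. By this scaling 13.3%, 19.8% and 13.7% of all genes were lower against T0, and 3.06% and 6.14% higher under the drugs.

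Relative to the 20 nearest genes, members lower were 0 under each drug against untreated cells [2 and 2], 3 under erlotinib [21] and 7 under osimertinib [17] against T0, and 14 in untreated cells [25]. By this measure 1.4% and 2.44% of all genes were lower under erlotinib and osimertinib against untreated cells. Against T0 the shares were 7.68%, 10.1% and 7.81% under erlotinib, under osimertinib and in untreated cells. The medians of TFIID-only, SAGA-only and shared genes were 0.014, -0.049 and -0.14 under erlotinib against T0, 0.065, -0.056 and -0.22 under osimertinib against T0, and -0.36, -0.063 and -0.36 in untreated cells. Against untreated cells under osimertinib they were 0.32 for TFIID-only [0.37] and 0.016 for SAGA-only genes [-0.06]. The cause was not tested. Of the single genes called as reported, those that turned sign did so against T0. TAF2 under erlotinib was at 0.011 with TMM, 0.0085 with DESeq2 size factors and 0.053 relative to neighbours, and SUPT7L under osimertinib at 0.0027 with TMM. Relative to neighbours, TAF13 was at 0.089 and 0.16 and TAF6L at 0.066 and 0.036 under erlotinib and osimertinib, KAT2A at 0.0069 under erlotinib, ENY2 at 0.024 under osimertinib and 0.010 in untreated cells, and ATXN7L3 at 0.022 in untreated cells.

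With the mean over guides, and with edgeR on summed counts, 1 member was higher and 1 lower under erlotinib than under osimertinib [0 and 0]. The mean over guides gave medians of 0.41 for TFIID-only genes under osimertinib against untreated cells [0.37], -0.54 for them in untreated cells [-0.57] and -0.20 for SAGA-only genes under erlotinib against T0 [-0.24]. The median of edgeR or of DESeq2 guide L2FC gave 0.35 for TFIID-only [0.38] and 0.21 for shared genes [0.25] under erlotinib and 0.23 for shared genes under osimertinib [0.13] against untreated cells, -0.19 for SAGA-only genes under erlotinib [-0.24] and -0.092 for TFIID-only genes under osimertinib [-0.12] against T0. DESeq2 called 1 guide lower under erlotinib [3] and 3 under osimertinib [5]. Without the filter 1 member was lower under erlotinib than in untreated cells [2].

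Leaving out each library in turn, members lower ranged from 0 to 2 under erlotinib against untreated cells, 11 to 21 under erlotinib against T0, 13 to 19 under osimertinib against T0 and 19 to 26 in untreated cells. Members higher ranged from 11 to 13 under erlotinib and 9 to 13 under osimertinib against untreated cells, 0 to 1 under osimertinib against T0 and 0 to 1 between the drugs. Counts over the related lists moved by more than 1.5 times in 57 of the values under alternatives and not in 513. For the erlotinib counts the range over single libraries left out was 6 to 10 higher for general transcription factors, 1 to 2 for ATAC and 0 to 1 for NuA4, and 2 to 4 higher and 0 to 1 lower for TBP partners. Guides lower ranged from 0 to 5 under erlotinib and 2 to 6 under osimertinib, and guides higher from 11 to 25 and 13 to 24. Medians against untreated cells ranged from 0.34 to 0.40 (TFIID-only, erlotinib), 0.32 to 0.40 (TFIID-only, osimertinib), 0.056 to 0.22 (shared, osimertinib) and -0.076 to -0.00067 (SAGA-only, osimertinib). Against T0 they ranged under erlotinib from -0.18 to -0.14 (TFIID-only), -0.25 to -0.17 (SAGA-only) and -0.31 to -0.25 (shared), under osimertinib from -0.12 to -0.088, -0.23 to -0.12 and -0.42 to -0.33, and in untreated cells from -0.58 to -0.53 (TFIID-only) and -0.23 to -0.19 (SAGA-only).

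With the replicate number as a block, 25 members were lower in untreated cells, 13 were higher under erlotinib and 11 under osimertinib, the same numbers as without it. Guides higher under erlotinib came to 23 with the block against 21 without, and no other count of members or of their guides differed. With 2 libraries a group and 2 to 4 guides a gene, an L2FC had a standard error of 0.06 to 0.12, and differences of up to 0.26 (TAF5 under osimertinib against untreated cells) missed the threshold. Non-targeting guides had an SD of L2FC of 0.112 to 0.160.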
